A study of Mus musculus with 18 samples.

Results

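The comparison described here set bone marrow-derived macrophages (BMDMs) of the Sjögren's syndrome-susceptible strain C57BL/6.NOD-Aec1Aec2 (SjSS) against those of C57BL/6 (B6) mice after both had been given apoptotic cells (ACs). Its members were set by the strain and treatment labels, with earlier results of these data known. The labels gave 6 of the 18 samples of the series, 3 SjSS and 3 B6. Both groups were cultured from the bone marrow of female mice 7 to 12 weeks of age for 7 days with 20% supernatant of L929 cells, the source of M-CSF. The supernatant was reduced to 5% before treatment. The cells then received 5 ACs per BMDM for 2 h, were washed, and were left for a further 3 h per the labels. The study's methods give another time for this last step. The ACs were thymocytes killed with dexamethasone, and the labels do not say which strain the thymocytes came from. The other samples were untreated (3 of each strain, used below to ask whether a difference was already there) or treated with CpG (3 of each strain, not compared here). SjSS mice carry the NOD-derived intervals Aec1 and Aec2, which lie on chromosomes 3 and 1, on the B6 background. Every gene outside those intervals is meant to be of B6 origin in both strains.

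Macrophages recognise phosphatidylserine on dying cells through receptors such as the TAM family (Tyro3, Axl and Mer, encoded by Mertk), engulf them and degrade them in lysosomes, a process called efferocytosis. In healthy tissue the uptake is usually quiet: cytokine and interferon genes are held down, in part through SOCS proteins, which block JAK-STAT signalling. Nucleic acids of cargo that is not cleared can reach Toll-like receptors and cytosolic sensors, and the type I interferon made in response switches on interferon-stimulated genes through STAT and IRF factors. The comparison asks what state the macrophages of the 2 strains are in once they have met ACs, for genes that were lower as well as higher, and which transcripts dominate the RNA.

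The deposited estimated read counts summed to between 43846582 and 57053295 per AC-treated sample, and 15789 of 20615 genes had enough reads to be tested. The first principal component of the 6 samples held 72.6% of the variance and separated the strains, and no sample lay with the other strain. The 6 macrophage markers examined (Adgre1, Csf1r, Cd68, Itgam, Lyz2 and Cd14) summed to between 17528 and 18257 CPM (read counts scaled to a common library size) in SjSS and between 15366 and 16343 CPM in B6. Of 23 thymocyte and T cell markers, 14 had too few reads to be tested, among them Cd3d, Cd3e, Cd3g, Trac, Rag1 and Dntt, whose mean levels were all under 0.2 CPM in both strains. The whole thymocyte list summed to between 33.6 and 37.4 CPM in SjSS and between 25 and 32.1 CPM in B6, most of it from Cd28, and it was higher in the untreated samples (from 57 to 81 CPM). In bulk RNA of this kind, fewer cells of a type and less RNA per cell cannot be told apart.

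AC-treated SjSS BMDMs differed from AC-treated B6 BMDMs mostly upwards. A gene was called when edgeR's quasi-likelihood test gave it an adjusted p under 0.05 and its log2 fold change exceeded 1.3 in size. By that rule 985 of the 15789 genes tested (6.24%) were higher in SjSS and 425 (2.69%) were lower. The 985 higher genes had a median log2 fold change of 1.97, and 196 of them exceeded 3. The 425 lower genes had a median of -1.70, and 48 of them lay beyond -3. Across all genes tested the median was -0.05. In the untreated samples of the same strains the rule called 205 genes higher (1.3%) and 113 lower (0.716%).

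**Figure D1:**
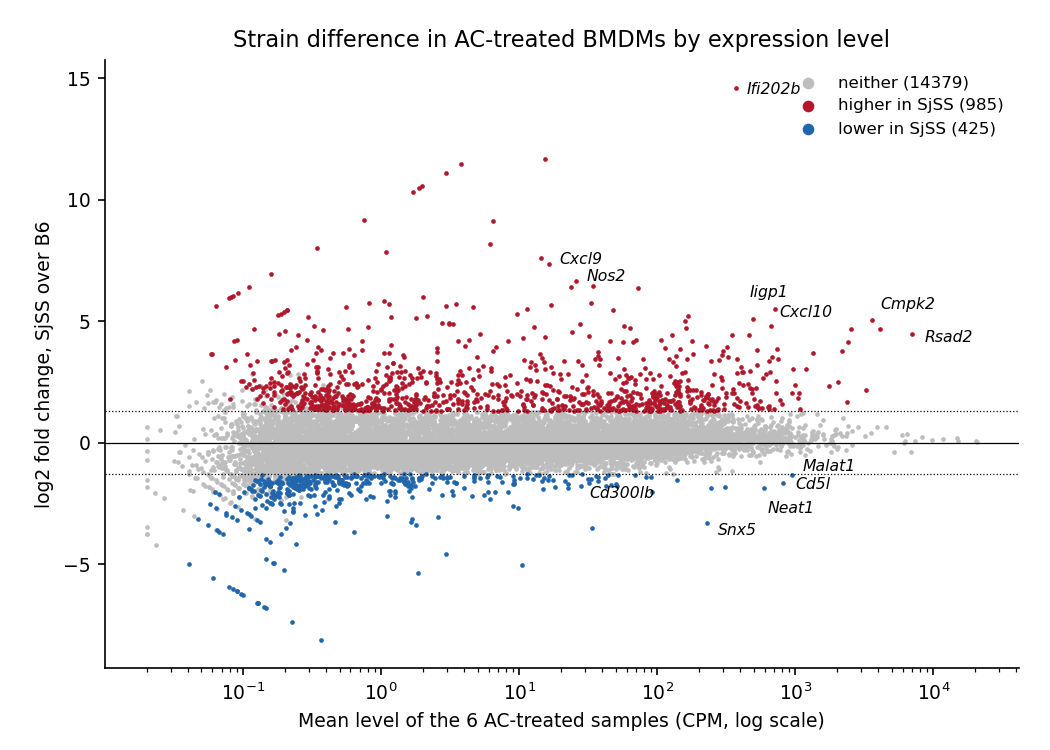
log2 fold change of SjSS over B6 in AC-treated BMDMs (vertical axis) against the mean level of the 6 AC-treated samples in CPM (horizontal axis, log scale). Each point is 1 of 15789 genes, red for the 985 called higher, blue for the 425 called lower and grey for the rest, with dotted lines at the fold threshold of 1.3, and the red points reach far to the right of the blue ones.

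The excess of higher calls lay above 1 CPM. Without the fold threshold, adjusted p alone gave 3782 higher genes (24.0%) and 4025 lower genes (25.5%). All 3 SjSS samples lay above all 3 B6 samples for 4562 genes (28.9%) and below them for 5028 (31.8%). Among the 104 genes with a mean over 1000 CPM, 16 were called higher and none lower, and by adjusted p alone 64 were higher and 9 lower. From 100 to 1000 CPM 185 were called higher and 7 lower, and by adjusted p alone 1065 and 312. From 10 to 100 CPM 239 were called higher and 39 lower, and from 1 to 10 CPM 231 and 96, but by adjusted p alone the order turned, with 1552 higher and 2074 lower in the former and 696 and 1202 in the latter. Among the 3524 genes under 1 CPM 314 were called higher and 283 lower. The 985 higher genes took between 14.2% and 14.7% of all counts in the SjSS samples with ACs, between 3.04% and 3.34% in B6 with ACs, and between 2.24% and 2.82% in the untreated samples of either strain. The 425 lower genes took between 0.165% and 0.214% of counts in SjSS and between 0.744% and 0.791% in B6 with ACs. CPM values are shares of a library scaled by its normalisation factor, so they are relative levels. The study describes its 3 samples per condition as 3 mice, while the labels give only replicate numbers and do not say which samples came from the same mouse.

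Interferon-stimulated genes were among the most abundant RNAs that were higher in SjSS. Of 28 antiviral interferon-stimulated genes, 24 were higher in SjSS and none lower, and their median log2 fold change was 2.83. Rsad2, which encodes the antiviral enzyme viperin, stood at 13433, 13142 and 13814 CPM in SjSS and at 631, 532 and 636 CPM in B6. Its groups lay far apart, and the log2 fold change was 4.49 ± 0.27 (SE; adjusted p = 6.45e-11). Cmpk2, its neighbour on chromosome 12 and a nucleotide kinase of mitochondria, stood at 6870, 7055 and 7167 CPM against 230, 190 and 212 CPM (5.06 ± 0.25; adjusted p = 4.72e-12). Ifit2, which encodes an RNA-binding protein that restrains viral translation, stood at 8235, 7532 and 8092 CPM against 300, 296 and 330 CPM. The B6 values of these genes were themselves above the untreated ones, where Rsad2 had a mean of 26.4 CPM in B6 and 53.7 CPM in SjSS. The sensor of long double-stranded RNA, Ifih1 (encoding MDA5), was at a mean of 1253 ± 50.3 CPM (SD) in SjSS and 110 ± 11.7 CPM in B6. The 4 members that were not called were Oas1a, Oas3, Bst2 and Ifitm3, with log2 fold changes of 0.76 to 1.29 and adjusted p under 0.05.

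The interferon-inducible GTPases, which attack the membranes of vacuoles that hold pathogens, had the largest median difference of the 25 lists in the plot of gene lists. Of 18 members, 17 were called higher and none lower, with a median log2 fold change of 4.09. Gbp2 stood at 890, 859 and 881 CPM in SjSS and at 34.8, 44.7 and 41.4 CPM in B6 (4.44 ± 0.15; adjusted p = 3.71e-14). Untreated, Gbp2 was between 14.4 and 21.7 CPM in the 6 samples, so both strains lay above that range with ACs, SjSS by far more. Iigp1 stood at 1546, 1255 and 1350 CPM against 27.3, 30.9 and 34.7 CPM (5.48 ± 0.28; adjusted p = 6.41e-12). Gbp8 was the member not called, at a log2 fold change of 1.17. These genes sit in clusters of near-identical copies, so the split of reads within a cluster is uncertain. All 5 tested Gbp genes in the cluster on chromosome 3 (positions 142493978 to 142638009, GRCm38) were higher, as were 5 of 6 in the cluster on chromosome 5 (105014150 to 105346473) and all 6 tested Ifit genes on chromosome 19 (34550694 to 34650010).

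Promoter sequence was examined for what the members that moved together share. RefSeq promoter windows (GRCm38.p6, from 250 bases before to 50 after the start) were searched on both strands for an ISRE-like motif, GAAANNGAA, bound by interferon-activated factors such as IRF proteins. A single window was at hand for 513 of the 985 higher genes (52.1%), 158 of the 425 lower genes and 8302 of all 15789. With so many genes lacking a window, the check is void for the sets as wholes, and the shares describe only the genes that had one. The motif was in 96 windows of higher genes (18.7%), 12 of lower genes (7.59%) and 622 of all (7.49%). A GAS-like motif, TTCNNNGAA, was in 9.16%, 7.59% and 6.87%, and a kB-like motif, GGGANNTTC, in 6.82%, 3.16% and 3.83%. ISRE-like and GAS-like matches overlapped in 2 windows of higher genes and 11 of all. Among list members with a window, the ISRE-like motif was in 13 of 18 antiviral genes, 9 of 10 GTPases, 4 of 16 chemokines and 0 of 13 cytokines. In the same order of lists, the kB-like motif was in 1, 2, 5 and 5 of these windows. The 250 bases before the start are shown for 6 abundant genes of SjSS BMDMs and 2 of the more abundant lower genes, with ISRE-like matches in capitals, 5′ to 3′ on the strand of the gene.
Rsad2, chr12:26456453-26456702, minus strand: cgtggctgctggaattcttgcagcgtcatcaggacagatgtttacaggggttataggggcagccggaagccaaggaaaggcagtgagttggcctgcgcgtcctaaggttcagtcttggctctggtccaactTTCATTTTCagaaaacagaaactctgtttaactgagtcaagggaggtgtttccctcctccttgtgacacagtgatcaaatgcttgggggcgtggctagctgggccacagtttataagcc
Cmpk2, chr12:26468965-26469214, plus strand: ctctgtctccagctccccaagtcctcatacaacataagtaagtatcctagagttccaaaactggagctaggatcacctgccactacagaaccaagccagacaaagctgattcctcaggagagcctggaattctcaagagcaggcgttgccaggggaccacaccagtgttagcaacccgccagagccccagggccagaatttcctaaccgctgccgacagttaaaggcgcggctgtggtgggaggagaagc
Ifit3, chr19:34583279-34583528, plus strand: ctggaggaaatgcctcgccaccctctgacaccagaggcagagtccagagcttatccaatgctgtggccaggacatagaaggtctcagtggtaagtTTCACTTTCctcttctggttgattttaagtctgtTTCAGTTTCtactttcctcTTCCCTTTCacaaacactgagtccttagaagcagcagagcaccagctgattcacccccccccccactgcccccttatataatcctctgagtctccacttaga
Cxcl10, chr5:92348890-92349139, minus strand: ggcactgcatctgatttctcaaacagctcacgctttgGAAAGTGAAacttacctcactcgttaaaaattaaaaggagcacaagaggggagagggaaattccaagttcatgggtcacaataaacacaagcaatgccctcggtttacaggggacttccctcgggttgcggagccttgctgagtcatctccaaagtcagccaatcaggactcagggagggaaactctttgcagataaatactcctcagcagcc
Gbp2, chr3:142620413-142620662, plus strand: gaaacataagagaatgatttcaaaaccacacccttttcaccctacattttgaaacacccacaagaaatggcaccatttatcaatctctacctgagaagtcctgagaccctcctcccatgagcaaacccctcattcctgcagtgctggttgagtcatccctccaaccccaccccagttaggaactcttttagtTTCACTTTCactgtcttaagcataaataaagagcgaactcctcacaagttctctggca
Socs1, chr16:10785537-10785786, minus strand: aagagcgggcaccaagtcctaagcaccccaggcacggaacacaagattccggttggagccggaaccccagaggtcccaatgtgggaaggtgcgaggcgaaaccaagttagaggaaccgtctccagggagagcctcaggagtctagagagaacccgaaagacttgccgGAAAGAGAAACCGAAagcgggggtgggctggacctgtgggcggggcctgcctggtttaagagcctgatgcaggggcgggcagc
Cd5l, chr3:87357631-87357880, plus strand: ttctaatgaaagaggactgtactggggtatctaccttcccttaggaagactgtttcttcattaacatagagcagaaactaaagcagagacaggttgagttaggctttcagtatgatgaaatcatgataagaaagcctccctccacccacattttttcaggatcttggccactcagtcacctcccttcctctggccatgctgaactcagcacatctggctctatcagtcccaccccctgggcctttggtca
Cd300lb, chr11:114934372-114934621, minus strand: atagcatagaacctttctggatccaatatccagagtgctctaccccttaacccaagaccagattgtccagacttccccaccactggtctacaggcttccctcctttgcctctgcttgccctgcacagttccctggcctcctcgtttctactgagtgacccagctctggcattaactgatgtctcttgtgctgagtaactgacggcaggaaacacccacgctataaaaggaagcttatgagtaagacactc

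The window of Ifit3 held 3 ISRE-like matches, 155, 121 and 102 bases before the start, and that of Socs1 held 2 that overlap, 83 and 77 bases before it. Rsad2, Cxcl10 and Gbp2 held 1 each, and Cxcl10 also held a kB-like match 159 bases before its start. The windows of Cmpk2, Cd5l and Cd300lb held no ISRE-like match, which says only that these letters are not in those bases. A match describes the sequence and is not a measured binding site.

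The factors that carry interferon signals differed as well, though few of the list passed the fold threshold. Of 15 tested STAT and IRF genes, 5 were higher and none lower, with a median of 0.71. Irf1 stood at 1373, 1453 and 1285 CPM in SjSS and at 126, 131 and 126 CPM in B6 (3.42 ± 0.11; adjusted p = 1.69e-14), while the 6 untreated samples ranged from 68.8 to 90.4 CPM. Stat2, which carries the type I interferon signal, was at 663 ± 41.5 CPM (SD) against 122 ± 1.3 CPM. Irf7, the interferon amplifier, was at 785 ± 46.5 CPM against 297 ± 54.6 CPM, and it already stood at 112 against 50.1 CPM untreated. Irf3 and Irf8 were not called, at -0.36 and 0.19. The transcript of interferon beta itself, Ifnb1, was scarce but separated the strains, at 5.66, 5.45 and 4.85 CPM in SjSS and 0.10, 0.30 and 0.11 CPM in B6 (4.91 ± 0.49; adjusted p = 9.69e-08).

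Chemokines, which recruit leukocytes, were higher in 15 of 24 tested members and lower in none, with a median of 1.72. Cxcl10, which draws activated T cells through CXCR3, stood at 4626, 5143 and 4774 CPM in SjSS and at 181, 188 and 204 CPM in B6 (4.67 ± 0.23; adjusted p = 4.62e-12). The untreated samples held between 0.89 and 4.17 CPM of Cxcl10, so both strains had far more of it with ACs and SjSS the most. Ccl4 was at 1172 ± 99.1 CPM (SD) against 116 ± 7.00 CPM, Ccl3 at 742 ± 76.2 CPM against 98.8 ± 4.44 CPM, and Ccl5 at 599 ± 25.4 CPM against 38.8 ± 6.91 CPM. These 3 chemokines had no strain difference that passed the threshold without treatment, where their log2 fold changes were -0.03, -0.19 and 0.16. Cxcl9, another ligand of CXCR3, was at 32.8, 39.3 and 26.2 CPM against 0.22, 0.15 and 0.22 CPM. Cxcl14 ran the other way without passing the fold threshold, at -0.64 (adjusted p = 0.0111).

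Cytokines were higher in 16 of 23 tested members and lower in none, with a median of 1.62. Tnf stood at 722, 835 and 757 CPM in SjSS and at 144, 179 and 167 CPM in B6 (2.24 ± 0.14; adjusted p = 9.59e-11). Without ACs the order was the opposite, since Tnf was between 14.3 and 25.7 CPM in SjSS and between 45.5 and 46.5 CPM in B6. Il6 stood at 55.5, 75.7 and 76.8 CPM against 3.71, 6.36 and 5.75 CPM (3.72 ± 0.20; adjusted p = 1.48e-11). Il12b, a subunit shared by IL-12 and IL-23, was at 15.8 ± 1.96 CPM (SD) against 0.87 ± 0.37 CPM, and Il27 at 46.3 ± 1.73 CPM against 2.00 ± 0.24 CPM. Il15, which sustains NK and memory T cells, was at 107 ± 7.02 CPM against 6.04 ± 0.60 CPM. Il1b, the pyrogenic cytokine, was among the least different of those called, at 122, 131 and 132 CPM against 40.0, 60.5 and 54.0 CPM (1.32 ± 0.18; adjusted p = 7.56e-06), and fell under the fold threshold when the first B6 sample was left out, at 1.17. Of the cytokines known to restrain inflammation, Il10 was at 14.9 ± 2.36 CPM against 7.13 ± 0.44 CPM and missed the fold threshold at 1.06 (adjusted p = 1.34e-05). Tgfb1 was level, at 342 ± 3.18 CPM against 339 ± 8.57 CPM (0.01 ± 0.05; adjusted p = 0.879).

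**Figure D2:**
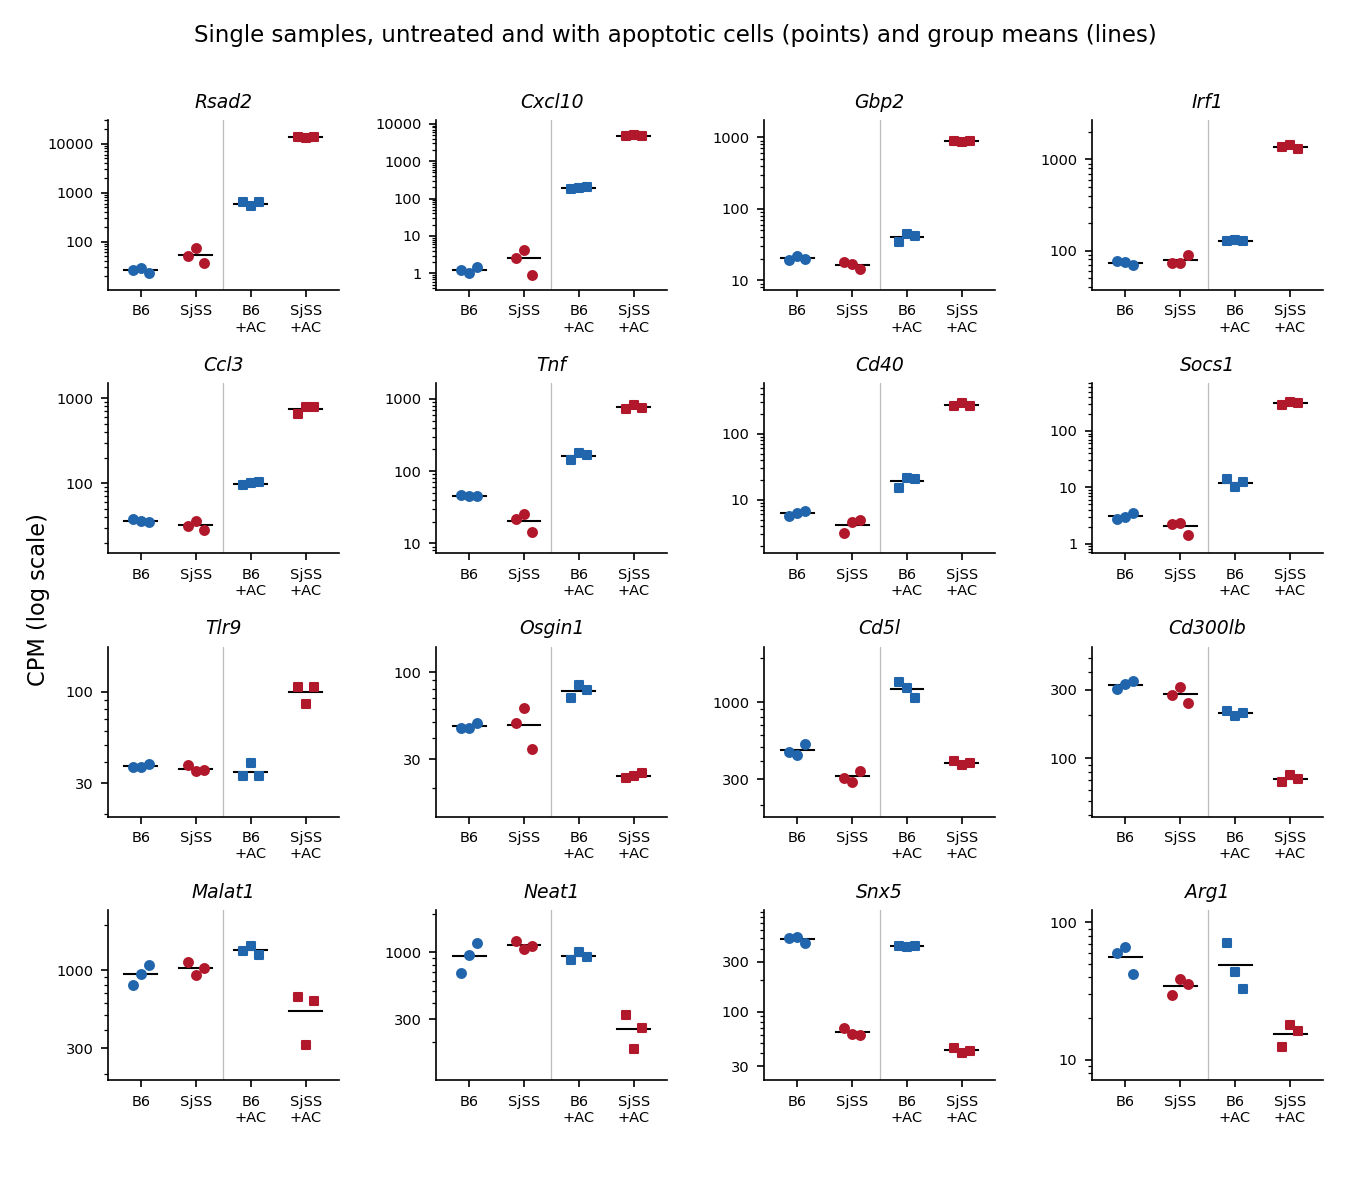
CPM (log scale) of 16 genes in single samples, with untreated samples as circles left of the grey line and AC-treated samples as squares right of it, B6 blue and SjSS red, and the mean of each 3 samples as a black line. From Rsad2 to Tlr9 the 3 SjSS samples with ACs lie above all 3 B6 samples with ACs, and from Osgin1 to Arg1 below them.

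Molecules that speak to T cells followed the same direction. Of 13 costimulation genes 8 were higher and none lower, with a median of 1.59. Cd40, the receptor for CD40 ligand on helper T cells, stood at 264, 289 and 265 CPM in SjSS and at 15.2, 21.3 and 20.4 CPM in B6 (3.85 ± 0.13; adjusted p = 4.26e-14), above every untreated sample in both strains. Cd86, a ligand of CD28, was at 189 ± 6.39 CPM (SD) against 58.3 ± 5.76 CPM, where B6 with ACs sat close to the untreated values of 30.4 to 63.4 CPM. Cd80, the other CD28 ligand, was not called, at 0.32. The inhibitory ligand PD-L1, encoded by Cd274, was also higher, at 2136 ± 84.5 CPM against 262 ± 5.44 CPM. In the MHC class I pathway 7 of 17 genes were called, and all 17 were higher by adjusted p alone, with a median of 1.18; Tap1, the peptide transporter, had the largest difference at 2.81 ± 0.15. In the MHC class II pathway 6 of 10 were higher, with a median of 1.80. H2-Aa, an alpha chain of the class II molecule, stood at 25.9, 32.7 and 23.8 CPM against 2.22, 4.16 and 3.68 CPM, where SjSS lay above its untreated range of 11.4 to 18.9 CPM and B6 under its untreated range of 6.66 to 11.5 CPM.

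Effector enzymes and sensors moved less uniformly. Of 13 effector enzymes 7 were higher and 1 lower, with a median of 1.35. Nos2, which makes nitric oxide from arginine, was at 56.3, 46.8 and 50.8 CPM in SjSS and 0.52, 0.36 and 0.67 CPM in B6 (6.65 ± 0.34; adjusted p = 8.78e-12). The competing enzyme Arg1, arginase, was the lower one, at 12.4, 17.9 and 16.2 CPM against 70.3, 43.1 and 32.7 CPM (-1.65 ± 0.23; adjusted p = 1.03e-05), with no overlap but a wide spread in B6. Acod1, which makes itaconate, was abundant in both strains, at 5312 ± 63.4 CPM (SD) against 1174 ± 137 CPM. Of 19 pattern recognition genes 7 were higher and none lower, with a median of 0.65. Tlr9, the endosomal receptor for DNA, was at 107, 85.7 and 107 CPM against 33.1, 39.3 and 32.9 CPM (1.5 ± 0.12; adjusted p = 4.48e-09). Tlr7, its counterpart for single-stranded RNA, missed the fold threshold at 1.10, with 312 ± 21.2 CPM against 145 ± 10.2 CPM. Tlr3, Nod1, Nod2, Aim2, Myd88 and the scarce Tlr11 were the other members called.

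Of 8 SOCS genes 4 were called higher and none lower, with a median of 1.03. Socs1, which blocks JAK kinases, stood at 295, 333 and 312 CPM in SjSS and at 13.8, 10 and 12.2 CPM in B6 (4.71 ± 0.15; adjusted p = 2.22e-14). Socs3 was at 177 ± 12.9 CPM (SD) against 35.7 ± 6.08 CPM, and it had been lower in SjSS without treatment, at 5.47 against 11.5 CPM. Cish and Socs7 were also called, and Socs5 was lower by adjusted p alone, at -0.43. In the NF-kB list 3 of 16 (18.8%) were called higher (Nfkbiz, Tnfaip3 and Traf1) and none lower, with a median of 0.76. Over all tested genes 6.24% were higher and 2.69% lower. Rela and Nfkb1 were at 0.56 and 0.94 with adjusted p under 0.05. Arid5a, which stabilises Il6 mRNA, was at 133 ± 7.45 CPM against 7.13 ± 0.40 CPM. The complement component C3 was at 783 ± 17.4 CPM against 188 ± 5.56 CPM, the purine enzyme Pnp at 1244 ± 52.7 CPM against 216 ± 3.83 CPM, and Trafd1, a negative regulator of innate signalling, at 486 ± 7.57 CPM against 102 ± 1.06 CPM.

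**Figure D3:**
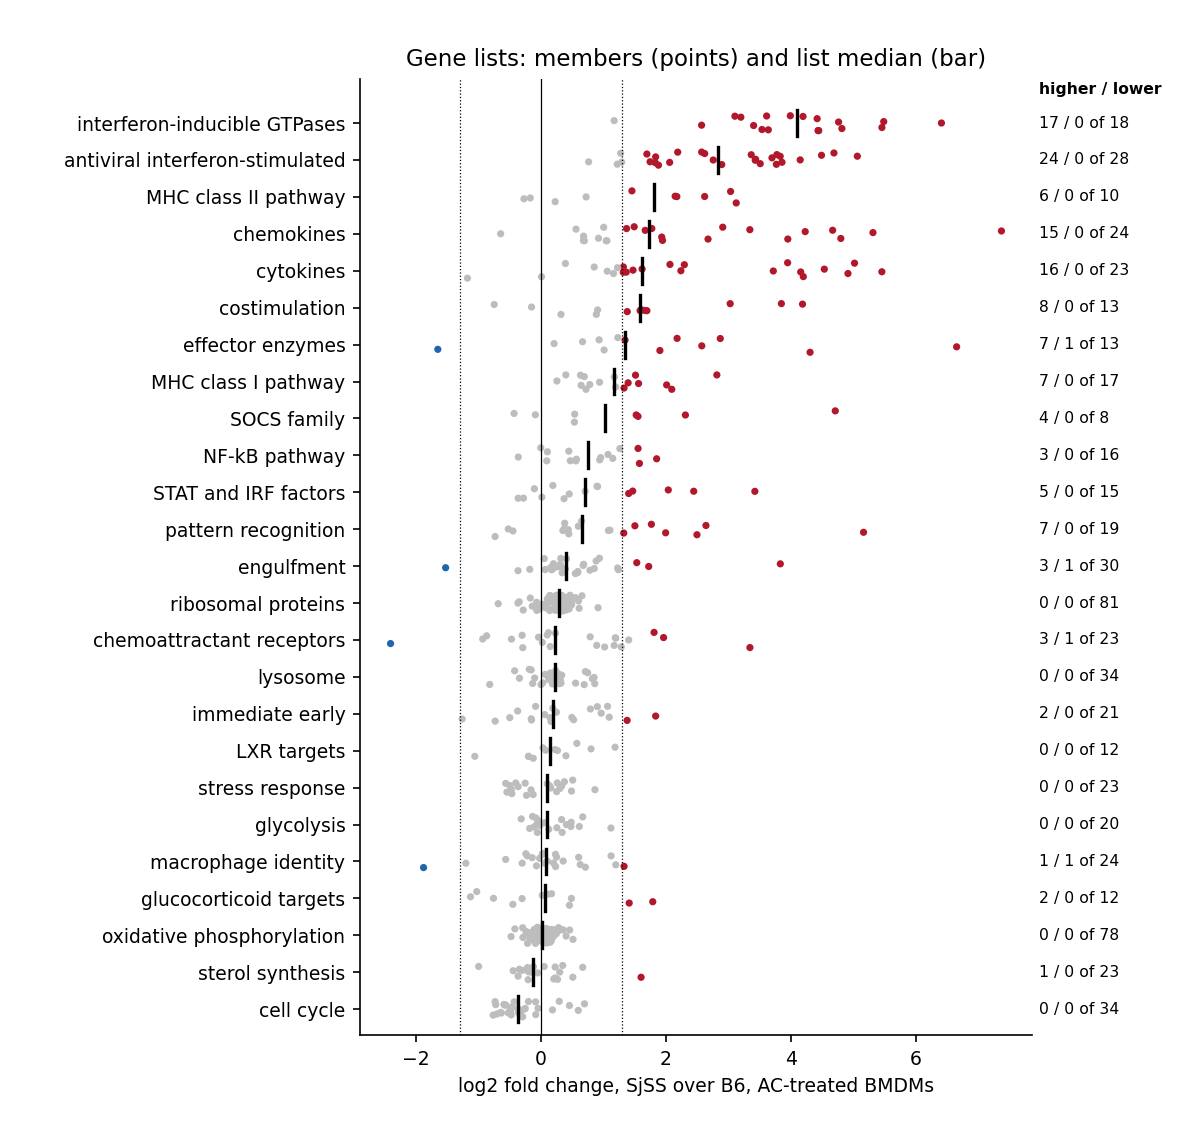
log2 fold change of SjSS over B6 with ACs (horizontal axis) for the tested members of 25 gene lists, 1 point per gene, red if called higher, blue if called lower and grey if neither, with the list median as a black bar and the counts called higher and lower at the right. The interferon lists lie farthest to the right (medians 4.09 and 2.83), and the medians of LXR targets, glycolysis and oxidative phosphorylation lie between 0 and 0.2.

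Receptors and bridging molecules of efferocytosis differed mostly by less than the fold threshold. Of 30 tested engulfment genes 3 (10%) were called higher and 1 (3.33%) lower, beside 6.24% and 2.69% of all tested genes. Their median was 0.40 beside -0.05 over all genes, and by adjusted p alone 21 were higher and 2 lower. Mertk stood at 188, 172 and 186 CPM in SjSS and at 145, 148 and 145 CPM in B6, and although the groups did not overlap the difference was only 0.31 ± 0.08 (adjusted p = 0.00211). Axl was at 343, 333 and 393 CPM against 170, 148 and 139 CPM, just short of the fold threshold at 1.23, and it passed it at 1.32 without the first B6 sample. Tyro3 was under 1 CPM in both strains. Mfge8, a bridge between phosphatidylserine and integrins, was called at 1.72 ± 0.17, but it already stood at 294 against 170 CPM untreated. The other higher members were scarce: Timd4, encoding the phosphatidylserine receptor TIM-4, was at 0.419 CPM against 0.0273 CPM. Megf10 was at 0.543 CPM against 0.186 CPM, was also called higher untreated at 1.67, and lost its call without B6 sample 1, B6 sample 3 or SjSS sample 2 (adjusted p = 0.0813, 0.0581 and 0.101). Cd300lb, an activating receptor that binds phosphatidylserine, was the member that was lower, at 68.0, 75.9 and 72.1 CPM against 215, 198 and 208 CPM (-1.52 ± 0.11; adjusted p = 9.94e-10).

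Among 23 receptors for chemoattractants 3 (13%) were higher (Ccr7, P2ry13 and P2ry14) and 1 (4.35%) was lower, with a median of 0.23. Among 21 immediate early genes 2 (9.52%) were higher (Nr4a3 and Maff) and none lower, with a median of 0.19. Over all tested genes 6.24% were higher and 2.69% lower, and no difference from those shares was tested.

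Few genes for the handling of cargo passed the fold threshold between the strains. None of 34 lysosome genes was called in either direction (20 were higher and 3 lower by adjusted p alone, median 0.22). Over all tested genes, adjusted p alone gave 24.0% higher and 25.5% lower. The largest lysosome differences were those of the regulator Mitf at 0.86 and the mannosidase Man2b1 at 0.85. None of 12 LXR targets, several of which export cholesterol from loaded macrophages, was called, and Abca1, the main cholesterol exporter, was at 0.08 (adjusted p = 0.636). The 12 log2 fold changes ran from -1.06 to 1.19, and by adjusted p alone 4 were higher and 2 lower. In cholesterol synthesis 1 of 23 genes (4.35%) was called higher and none lower, beside 6.24% and 2.69% of all tested genes. The called gene was Insig1, at 129 ± 3.16 CPM (SD) against 42.5 ± 3.84 CPM, and the list median was -0.12. None of 20 glycolysis, 23 stress response, 78 oxidative phosphorylation, 81 ribosomal protein or 34 cell cycle genes was called, with medians of 0.09, 0.10, 0.02, 0.30 and -0.36. By adjusted p alone 57 of the 81 ribosomal protein genes were higher and 3 lower. Many ribosomal protein genes share reads with pseudogenes, and their counts are uncertain. Of the cell cycle genes 12 were lower and 4 higher by adjusted p alone, led by Cenpf at -0.76. Among 12 glucocorticoid targets, examined because the ACs were made with dexamethasone, 2 scarce genes were higher (Pdk4 and Il1r2, both of which lost the call in some fits without 1 sample), and Tsc22d3, the best known target, was at 27.6 ± 1.10 CPM against 60.3 ± 2.44 CPM (-1.13), short of the fold threshold.

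The genes that were lower in SjSS formed a different kind of set. Only 59 of the 425 reached 10 CPM in B6 and 10 reached 100 CPM, and their median level there was 0.651 CPM. Protein-coding genes made up 47.1% of them, against 85.6% of the higher genes and 82.2% of all genes tested. Part of that goes with level: among genes under 1 CPM in both strains, 52.7% of all tested genes but 30.6% of the lower ones and 78.3% of the higher ones were protein-coding. Above 10 CPM, 53 of 59 lower genes were protein-coding. Of all tested genes, 94.1% were protein-coding from 10 to 100 CPM, 95.7% from 100 to 1000 CPM and 96.5% over 1000 CPM. Cebpa, a myeloid transcription factor, stood at 161 ± 8.27 CPM (SD) against 370 ± 21.9 CPM and missed the fold threshold at -1.20. Id1 and Id3, inhibitors of helix-loop-helix factors, likewise stood at -1.22 and -1.04.

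Cd5l, a secreted scavenger protein of macrophages also called AIM, was the lower gene with the most TPM in B6, at 399, 375 and 386 CPM in SjSS and 1379, 1253 and 1072 CPM in B6 (-1.68 ± 0.10; adjusted p = 1.09e-10). In B6 it was above the untreated samples, which held between 439 and 521 CPM, and in SjSS it stood at 290 to 344 CPM untreated. Cd5l was thus already lower in untreated SjSS, at -0.59 (adjusted p = 4.02e-04), short of the fold threshold. The gene lies on chromosome 3, which carries a NOD interval, and whether it falls within that interval was not tested. Other protein-coding genes called lower were Lfng, a modifier of Notch receptors, at 39.4 ± 2.26 CPM (SD) against 99.6 ± 7.15 CPM (-1.34, and -1.28 without the second B6 sample, short of the fold threshold), and Osgin1, a target of NRF2, at 23.8 ± 0.84 CPM against 77.4 ± 6.79 CPM. Gpr183, a receptor for oxysterols, was at 0.35 ± 0.14 CPM against 1.85 ± 0.31 CPM, while the enzyme that makes its ligand precursor, Ch25h, was higher, at 20.4 ± 4.04 CPM against 1.04 ± 0.44 CPM. Of 24 macrophage identity genes 1 (4.17%), Siglec1, was called higher and 1 (4.17%) lower, beside 6.24% and 2.69% of all tested genes. The list median was 0.08, and by adjusted p alone 11 were higher and 3 lower. Siglec1, an interferon-responsive sialic acid receptor, was at 1.33 ± 0.18 and fell to 1.14 without the first B6 sample.

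A pair of long noncoding RNAs that stay in the nucleus were also lower. Neat1, the scaffold of paraspeckles, stood at 322, 176 and 257 CPM in SjSS and at 866, 1004 and 928 CPM in B6 (-1.89 ± 0.23; adjusted p = 1.89e-06). Malat1, a component of nuclear speckles, stood at 663, 317 and 617 CPM against 1335, 1460 and 1270 CPM (-1.35 ± 0.23; adjusted p = 9.51e-05). For both RNAs the second SjSS sample was the lowest, and Malat1 missed the fold threshold without it, at -1.08, and without the second B6 sample, at -1.29. At the same time the mitochondrial ribosomal RNA mt-Rnr2 was higher, at 3365, 3858 and 3583 CPM against 969, 965 and 1466 CPM (1.67 ± 0.21; adjusted p = 2.09e-06). The other mitochondrial ribosomal RNA, mt-Rnr1, was at 696 CPM against 355 CPM (0.97; adjusted p = 2.75e-04), short of the fold threshold, the mitochondrial mRNA mt-Co1 was at -0.39, and none of the 14 mitochondrial genes tested besides mt-Rnr2 was called. The part of these RNA classes in the other results was not tested.

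The top of the order of transcripts by abundance was common to both strains. Levels between genes are compared here in TPM, which divide counts by exon length and scale each sample to the same total. Apoe, encoding the lipid carrier apolipoprotein E, ranked first in both strains, at 23984 ± 579 TPM (SD) in SjSS and 28763 ± 1542 TPM in B6, and Lyz2, encoding lysozyme, ranked second at 18974 ± 434 TPM and 21726 ± 1329 TPM. Ctsd, Psap, Fth1, Ftl1, Tmsb4x and Hmox1 were among the first 9 in both, with reads of Ftl1 split uncertainly with the pseudogene Ftl1-ps1. Hmox1, the heme-degrading enzyme, stood that high only with ACs, since it ranked 41 in untreated SjSS and 37 in untreated B6. Of the first 20 genes, 16 were shared between the AC-treated strains, against 19 between the untreated ones. Of the first 100, 82 were shared with ACs and 92 without, and of the first 500, 418 and 467.

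**Figure D4:**
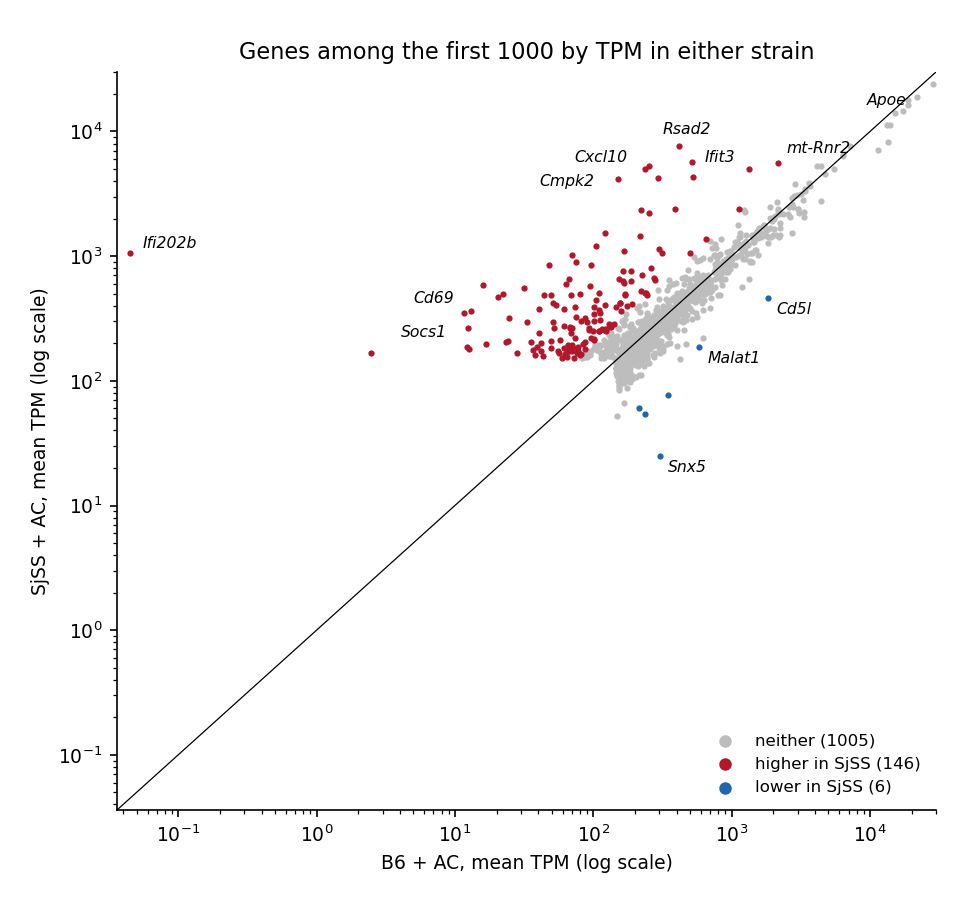
Mean TPM in AC-treated SjSS (vertical axis) against AC-treated B6 (horizontal axis), both on log scales, for genes among the first 1000 of either strain, coloured by call, with the line of equal levels. The top of the ranking (Apoe) lies near the line, while Rsad2, Ifit3, Cxcl10 and Cmpk2 lie well above it and Cd5l, Malat1 and Snx5 below it.

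The 4 genes among the first 20 of SjSS but not of B6 were all called higher. Rsad2 ranked 11 in SjSS and 350 in B6, Ifit3 ranked 15 and 275, mt-Rnr2 ranked 16 and 49, and Cxcl10 ranked 18 and 568. At 7606 ± 326 TPM (SD), Rsad2 stood in SjSS beside B2m, the light chain of MHC class I, at 7636 ± 151 TPM. Ifit2, Acod1, Ccl4, Ifit1 and Cmpk2 followed at ranks 21 to 26, and 15 of the first 100 SjSS genes were called higher and none lower. The longest climbs into the first 1000 were those of Ifi202b (from 17583 to 131), Serpina3g (10650 to 906), Ifit1bl1 (7304 to 463), Socs1 (7117 to 596) and Cd69 (6922 to 438), where the first rank is that of B6. In the other direction Cd5l ranked 66 in B6 and 335 in SjSS, Malat1 234 and 806, Cd300lb 682 and 2297, and Snx5 478 and 4314. The first 20 genes held between 20.2% and 20.5% of all TPM in SjSS and between 22.2% and 22.5% in B6. The first 100 held a mean of 38.5% in each strain. The first 500 held between 62.2% and 63.1% in SjSS and between 60.3% and 60.7% in B6. By TPM, SjSS thus had a smaller share in the first 20 genes and a larger one in the first 500. With CPM in place of TPM the gap at the first 20 was smaller.

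Most of the genes called with ACs were not called in the untreated cells. Of the 985 higher genes 116 were also called higher without treatment, 14 were called lower there and 855 were not called. Of the 425 lower genes 45 were also called lower, 8 were called higher and 372 were not called. Genes not called untreated could still differ by less than the fold threshold. The 28 antiviral genes had an untreated median of 0.79. Rsad2, Ifit1, Ifit2, Ifit3 and Cmpk2 stood untreated at 1.02, 1.19, 1.14, 1.22 and 1.09, each with adjusted p under 0.05. The interaction, which tests whether the strain difference with ACs differs from that without, called 752 genes upwards (4.76%) and 437 downwards (2.77%) across all genes. It held for 574 of the 985 higher genes and 249 of the 425 lower genes, in the same direction. Among the antiviral genes it held for 20 of 28, among the GTPases for 17 of 18, among chemokines for 13 of 24 and among cytokines for 11 of 23. Cd300lb was called downwards by it at -1.3, while for Cd5l, at -1.08, and Arg1, at -0.95, it missed the fold threshold.

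**Figure D5:**
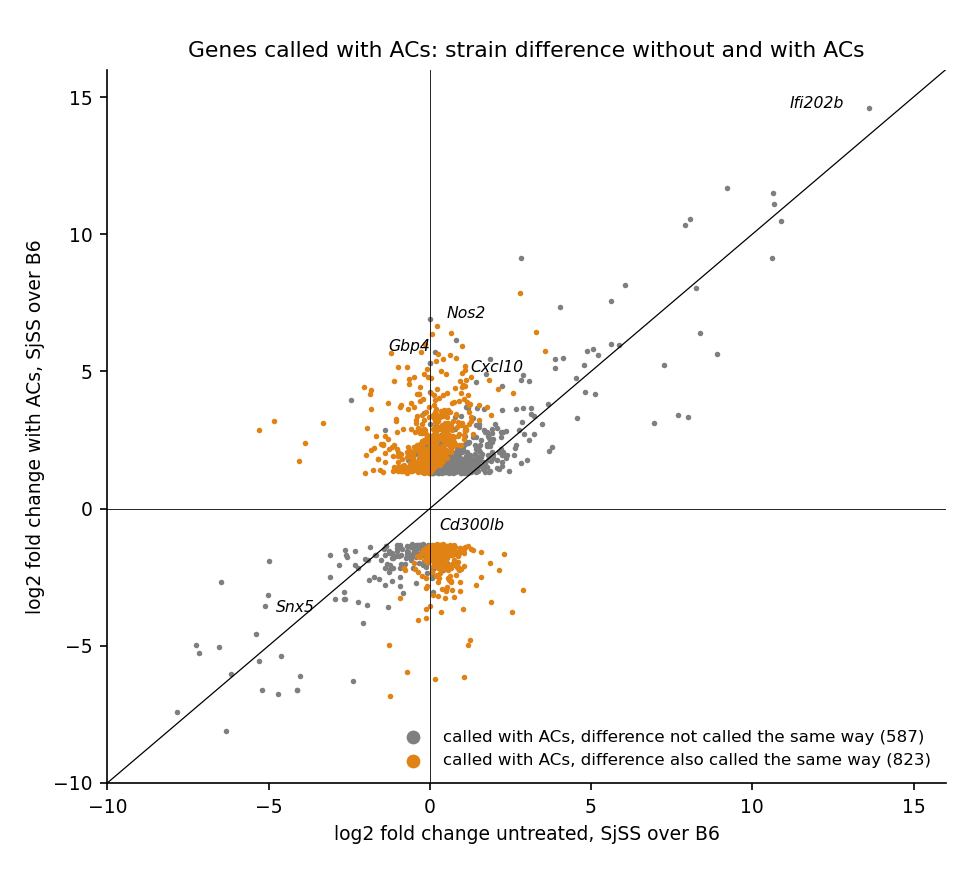
Strain difference with ACs (vertical axis) against that without treatment (horizontal axis), both as log2 fold change of SjSS over B6, for the genes called with ACs, in orange where the interaction was called the same way and in grey otherwise, with the line of equal differences. Most orange points lie near 0 on the horizontal axis, and grey points such as Ifi202b and Snx5 lie along the line.

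Some of the largest differences with ACs were already there without them, and in untreated cells the shares of genes called were highest on chromosomes 1 and 3, which carry the NOD intervals. On chromosome 1, 120 of 1046 genes (11.5%) were higher and 48 (4.59%) lower with ACs, the highest shares of any autosome, and 57 (5.45%) and 29 (2.77%) untreated. On chromosome 3 the shares were 7.94% and 3.25% with ACs and 2.77% and 1.81% untreated. Ifi202b, a DNA-binding PYHIN protein gene that B6 mice are known to express at very low levels, stood at 732, 756 and 736 CPM in SjSS with ACs and between 0 and 0.06 CPM in B6. Untreated SjSS held 117, 120 and 89.5 CPM, so Ifi202b rose with ACs from a level that B6 never reached. Chil1, encoding a chitinase-like protein on the same chromosome, stood at 31.5, 27.3 and 34.1 CPM against 0 to 0.02 CPM. Among lower genes Snx5, a sorting nexin of endosomes on chromosome 2, stood at 45.2, 40.5 and 42.5 CPM against 423, 413 and 422 CPM, and untreated at 60.2 to 69.2 CPM against 457 to 513 CPM. Cd55, which restrains complement, was at 35.4 ± 9.36 CPM (SD) against 147 ± 19.1 CPM, and Tpm3, a tropomyosin, at 135 ± 6.96 CPM against 483 ± 13.7 CPM, and both had been called lower untreated as well. All reads were aligned to the B6 reference genome, and how reads from NOD-derived sequence align to it was not tested.

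Markers of other cells were low but did not all match between the strains. Beside the counts below, 6.24% of all tested genes were called higher with ACs and 2.69% lower. Of 7 tested B cell markers 1 was higher, Ighm, at 28.1 ± 2.03 CPM (SD) against 5.55 ± 1.31 CPM, while the defining Pax5 and Ms4a1 were under 0.2 CPM. Of 5 tested dendritic cell markers 3 were higher, and the list summed to between 3.13 and 3.93 CPM in SjSS and between 1.25 and 1.53 CPM in B6. The 6 natural killer cell markers in the data summed to under 0.3 CPM and none could be tested. Of 6 tested neutrophil markers 1 was higher, the scarce Camp (not past adjusted p without the first B6 or the third SjSS sample, at 0.0744 and 0.0774), and the list summed to between 183 and 187 CPM against 125 to 141 CPM, most of it from Csf3r and Mmp8. Stromal markers summed to between 261 and 318 CPM in SjSS and between 122 and 166 CPM in B6, with Col1a1, Col1a2 and Dcn called higher (each call was lost in some fits without 1 sample), and the untreated samples showed the same order (211 to 296 CPM against 62.3 to 191 CPM). The part of these cells in the results was not tested.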

How the data were processed

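RNA-seq reads were aligned by the authors with STAR to mm10 and quantified in Partek, per the labels and the study's methods. The deposited values are estimated counts per gene, not normalized, and 41.1% of them are not whole because reads shared between genes were divided among them. They were rounded to whole numbers. All 18 samples were fitted in edgeR 4.0.16 (R 4.3.3) with TMM factors, the default filter on low counts and the quasi-likelihood test with Benjamini-Hochberg adjustment, since groups then share an estimate of the spread. Contrasts were SjSS against B6 with ACs, the same untreated, and their interaction. SE is the size of the log2 fold change divided by the square root of F. TPM used union exon lengths, which 19885 of 20615 genes had (96.5%). Of 23 gene names turned into dates, 22 were resolved. AC-treated libraries held between 43846582 and 57053295 counts. Genes were named by size of difference, abundance, rank shift and list membership, and others were added after their values were seen. The members and gene lists were chosen with earlier results of these data known. Alternatives used DESeq2 1.42.0, other scalings, filters, thresholds and lengths, a replicate block and leaving out each sample. Scripts were tested on simulated data. Results for some genes are not reported here.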

Additional observations from a re-analysis of the deposited data

Results flagged for a closer look

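The strain difference with ACs was set against the strain difference without treatment by the interaction term of the edgeR fit, which called 752 genes more positive and 437 more negative with ACs. The values below are the log2 difference between the 2 strain differences for the genes named above that were called. Among antiviral and interferon-inducible GTPase genes it was 3.97 for Cmpk2, 4.75 for Gbp2, 1.98 for Gbp8, 3.34 for Ifih1, 2.96 for Ifit1, 3.55 for Ifit2, 2.54 for Ifit3, 4.68 for Iigp1 and 3.47 for Rsad2. For transcription factors of the interferon and NF-kB pathways and their regulators it was 2.19 for Cish, 3.31 for Irf1, 1.34 for Nfkb1, 1.6 for Nfkbiz, 5.35 for Socs1, 3.42 for Socs3, 1.71 for Socs7, 1.77 for Stat2, 1.85 for Tnfaip3 and 1.33 for Traf1. For chemokines and cytokines it was 3.10 for Ccl3, 3.37 for Ccl4, 3.79 for Ccl5, 3.74 for Cxcl10, 1.90 for Il10, 3.65 for Il12b, 4.01 for Il15, 2.76 for Il1b, 5.19 for Il27, 4.63 for Il6 and 3.41 for Tnf. For antigen presentation and costimulation it was 2.58 for Cd274, 4.41 for Cd40, 1.99 for Cd86, 2.37 for H2-Aa and 2.42 for Tap1. For effector enzymes and pattern recognition genes it was 3.20 for Acod1, 1.68 for Aim2, 6.12 for Ch25h, 1.43 for Myd88, 2.56 for Nod1, 2.05 for Nod2, 6.44 for Nos2, 6.15 for Tlr11, 2.62 for Tlr3 and 1.55 for Tlr9. Other genes with a more positive difference had 4.19 for Arid5a, 1.70 for Axl, 2.77 for C3, 5.79 for Camp, 5.17 for Cd69, 4.09 for Ifit1bl1, 1.67 for Ighm, 2.03 for Insig1, 2.23 for Maff, 2.40 for Nr4a3, 2.33 for P2ry13, 1.65 for P2ry14, 2.15 for Pnp, 6.31 for Serpina3g, 2.22 for Trafd1, 1.48 for mt-Rnr1 and 2.09 for mt-Rnr2. The difference was more negative for few of the named genes, with -1.3 for Cd300lb, -1.32 for Cebpa, -2.63 for Gpr183, -1.48 for Malat1, -2.16 for Neat1, -1.72 for Osgin1 and -1.51 for Tsc22d3. Il1b and Ch25h were called lower in SjSS untreated and higher with ACs. Camp had 0 counts in the untreated SjSS samples and 7 in the untreated B6 samples, and Tlr11 had 2 counts in B6 with ACs. The sizes of the Camp and Tlr11 values are therefore not interpretable. Nos2, Il6 and Il12b also had few untreated counts (7, 8 and 9 in SjSS, 7, 18 and 7 in B6). The SEs of their values were 1.88, 1.03 and 1.23, so those sizes are imprecise. Groups of 3 are too small for a check of single samples.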

How the results depend on the processing

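The counts of called genes depended mainly on the fold threshold. With log2 fold change over 2, with fold change over 1.3 and with no fold threshold, 473, 2682 and 3782 genes were higher with ACs and 136, 2584 and 4025 lower. Untreated, the same thresholds gave 92, 848 and 1428 higher and 51, 795 and 1668 lower, and for the interaction 351, 2327 and 3098 upwards and 169, 2307 and 2889 downwards. DESeq2 gave 1012 higher and 400 lower with ACs, upper-quartile scaling 910 and 479, and fitting only the groups compared 930 and 340. Leaving out each sample gave 922 to 987 higher and 369 to 447 lower with ACs, 143 to 232 and 89 to 112 untreated, and 716 to 753 and 384 to 465 for the interaction. The share of TPM in the first 20 genes was 20.6% in SjSS and 22.8% in B6 with the longest transcript as length, 16.1% and 16.4% with CPM in place of TPM, and 20.1% and 22% with the median length for genes without one. The 149 named genes had 2083 values under the other tests, scalings, filters, sample choices, the replicate block and the fits without 1 sample. Of these values 2049 kept their direction and side of the threshold, 33 lost their call, 1 gained it and 0 changed sign. Many of these genes were named for the size of their difference in the main fit, so these counts do not speak for all called genes. Same-numbered samples of the 2 AC-treated strains did not deviate together (correlations of -0.0452, 0.00788 and -0.00566). Between same-numbered AC-treated and untreated samples the correlations were 0.105, 0.068 and 0.0272 in SjSS and 0.193, 0.0437 and 0.0198 in B6. The labels do not say whether such samples share a mouse, and the main fit did not pair them. With the replicate block 974 genes were higher and 419 lower with ACs, 208 and 115 untreated, and 760 and 433 for the interaction. With 3 samples a group, differences in genes under 1 CPM are the least precise.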
